A study of Homo sapiens with 9 samples.

Results

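The Empty MTSs (multicellular tumor spheroids) were made of PC3, a human line derived from a bone metastasis of a prostate carcinoma, that had been stably infected with lentiviral particles of the empty pSIN vector and kept by puromycin selection. They gave 3 of the 9 libraries of the series, called Empty A, Empty B and Empty C, and were chosen by their group label alone. The other 6 libraries came from the same line over-expressing the long (NF-YAl: A, B and D) or the short (NF-YAs: A, B and C) form of NF-YA. NF-YA is the DNA-binding regulatory subunit of the transcription factor NF-Y. These forms were also brought in by lentiviral particles, and the paper describes them as murine. Each library held total RNA of 18 pooled MTSs, seeded with 5000 cells each in low-attachment wells with Matrigel and collected after 7 days. Uninfected PC3 cells, monolayers and normal prostate were not analysed here, so the part of the vector, the selection and the spheroid culture in any Empty level cannot be told apart from that of the line.

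Prostate glands are lined by luminal cells, which secrete prostate-specific antigen in response to androgens, above a layer of basal cells and among rare neuroendocrine cells. PC3 is known as an androgen-independent line. In a spheroid, cells adhere to each other and to the matrix they secrete, and inner cells receive less oxygen and nutrients than outer ones.

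The 3 Empty libraries held 25033571, 27163976 and 26887186 expected counts, which are RSEM estimates of reads per gene, and 20544, 20462 and 20756 genes had counts in A, B and C. By a chi-square over counts, Empty A stood apart from the other libraries of its group. Its counts differed from those of B and C by a chi-square per gene of 49.0 and 49.5, against 11.3 between B and C, while the correlation of log values was 0.989 to 0.992 for all pairs. The chi-square scaled counts by library total only and gives most weight to abundant RNAs, such as RNA28S5 with 959881, 351111 and 425201 counts. It does not show that A differed in most genes. Ribosomal RNA took 7.71% of the counts in A, 3.77% in B and 3.37% in C. Levels are given below as TPM, in which counts are divided by transcript length and scaled to a common total, always in the order A, B, C. Protein-coding genes took 83.2, 86.7 and 85.7% of the counts but 51.7, 44.3 and 42.0% of the TPM, since short structural RNAs weigh heavily once length is divided out. The plot of the composition shows this split.

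**Figure D1:**
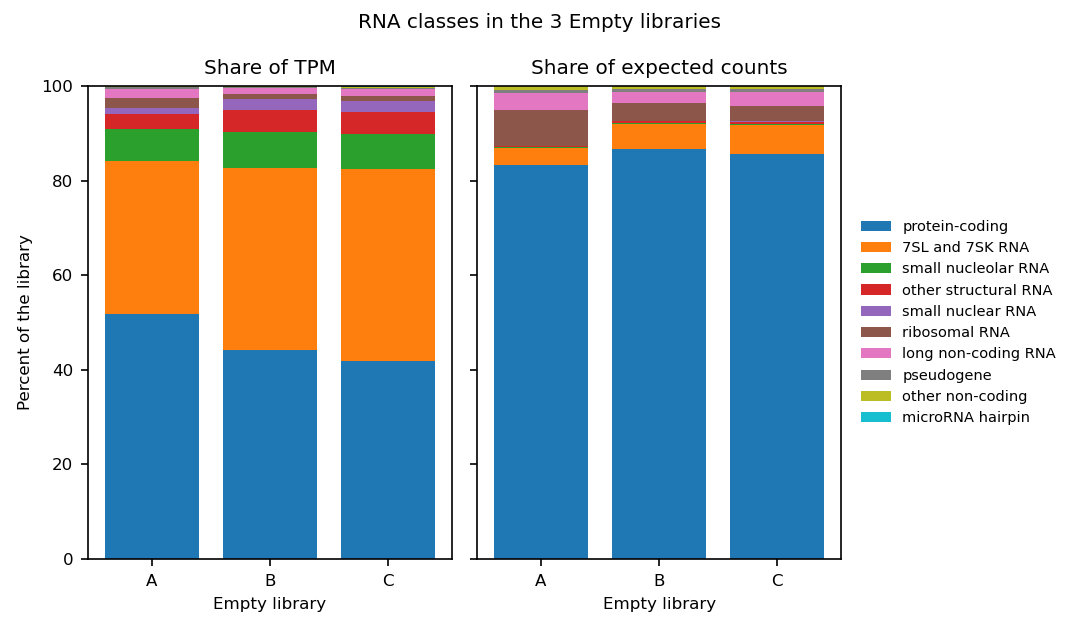
Share of TPM and share of expected counts (percent, vertical axes) taken by each class of gene in Empty A, B and C. 7SL and 7SK RNA took 32.3 to 40.5% of the TPM but 3.55 to 6.06% of the counts, and ribosomal RNA took the largest share of counts in A.

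A gene was called on with at least 1 TPM in each Empty library, at the floor with no more than 3 counts in any of them, and low otherwise. By this rule, 13372 of 27111 genes (49.3%) were on, 5755 were low and 7984 were at the floor. Among protein-coding genes, 11856 of 19228 (61.7%) were on and 3517 were at the floor, whereas 968 of 4338 long non-coding RNAs and 105 of 460 small nucleolar RNAs were on. Only 48 protein-coding genes averaged more than 1000 TPM, while 6368 lay between 10 and 100 TPM. The 100 most abundant protein-coding genes took 25.9, 27.4 and 28.1% of the protein-coding TPM. A count of 3 corresponds to 0.120, 0.110 and 0.112 CPM in A, B and C. Because TPM divides by length, 26 genes were on with no more than 3 counts in any library, and they were counted as on, not as at the floor.

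The most abundant protein-coding transcripts belonged to ribosomal proteins, glycolysis, the cytoskeleton and, unlike these, to a single secreted factor. MSMP, a microseminoprotein first described in PC3 cells as a secreted chemoattractant, stood at 5023, 4262 and 4997 TPM. It ranked 2 among protein-coding genes, below the ribosomal protein RPS24 (6380, 5681 and 5488 TPM) and above GAPDH, a glycolytic enzyme (3313, 3289 and 3001 TPM). All 3 libraries held MSMP at a similar level, with 54427 counts in the median library. S100A6, a calcium-binding protein, followed at 3249, 3130 and 2869 TPM, and TMSB10, an actin-binding thymosin, at 3018, 2696 and 2530 TPM. Of the 15 most abundant protein-coding genes, the others were 9 ribosomal protein genes and FTH1, the ferritin heavy chain. Ribosomal protein genes and GAPDH have many near-identical pseudogenes, so their levels are uncertain to the extent that reads were shared.

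**Figure D2:**
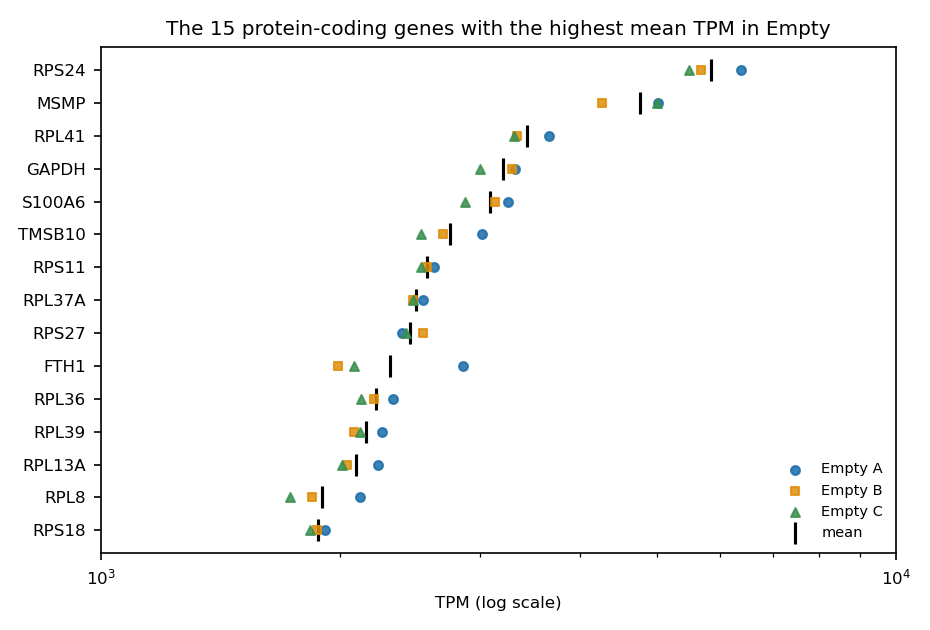
TPM (horizontal log axis) of the 15 protein-coding genes with the highest mean in Empty, with a point for each library and a bar at the mean. MSMP lies at 4262 to 5023 TPM, between RPS24 and RPL41, and FTH1 has its point for Empty A (2855 TPM) apart from B and C (1988 and 2079 TPM). On TMM-scaled CPM, FTH1 did not set A apart, with 2288, 2076 and 2226 in A, B and C.

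The promoters of MSMP and of KLK3, which encodes prostate-specific antigen, are shown because they encode secreted proteins at opposite ends of the range in Empty: MSMP was among the highest of all genes and KLK3 had 0 counts in all 3 libraries. Each window runs from 250 bases before to 50 bases after the start of the gene in RefSeq and was placed in GRCh37 by its only exact match. That of MSMP lies at chr9:35754224-35754523 on the minus strand, inside the longer gene of the GENCODE annotation, which overlaps RGP1 on the opposite strand (20.2, 18.97 and 19.8 TPM). That of KLK3 lies at chr19:51357921-51358220 on the plus strand. Capitals mark the letters TATAAA or TTTATA.
MSMP: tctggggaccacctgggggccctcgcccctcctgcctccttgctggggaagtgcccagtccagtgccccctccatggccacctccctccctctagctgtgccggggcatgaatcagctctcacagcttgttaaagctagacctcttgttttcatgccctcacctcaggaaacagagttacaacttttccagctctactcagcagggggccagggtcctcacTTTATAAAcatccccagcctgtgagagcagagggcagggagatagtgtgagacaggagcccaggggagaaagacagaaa
KLK3: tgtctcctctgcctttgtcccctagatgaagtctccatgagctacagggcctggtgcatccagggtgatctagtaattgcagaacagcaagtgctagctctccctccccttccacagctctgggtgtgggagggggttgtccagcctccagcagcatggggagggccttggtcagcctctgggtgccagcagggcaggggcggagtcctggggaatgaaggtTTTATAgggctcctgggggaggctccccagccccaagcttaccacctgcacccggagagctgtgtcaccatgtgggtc

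TATAAA, on either strand, was found in both windows. It occurred in 12.0% of the 27305 RefSeq promoters of the same length, in 5.49% of 9303 promoters of protein-coding genes that were on and in 20.1% of 2497 at the floor. The median GC content of those groups was 65.3% and 53.0%. A match describes the letters only.

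The labelled origin was checked against lineage markers, and members of each list were divided between on and low or at the floor. Of 22 luminal and androgen-axis genes 14 were on (63.6%), a share near the 61.7% of all protein-coding genes, as was that of the basal genes. This 61.7% is the reference for each count below of protein-coding list members that were on. KLK3 and MSMB, which encode secreted proteins of the normal gland, had 0 counts in every library. In contrast, HOXB13, the homeobox gene that marks prostate origin, was at 207, 195 and 167 TPM, and FOXA1, a pioneer factor of luminal cells, at 36.0, 29.4 and 27.3 TPM. The luminal keratin genes KRT8 (223, 194 and 161 TPM), KRT18 (339, 296 and 265 TPM) and KRT19 (569, 468 and 482 TPM) were all abundant, with the same caution about pseudogenes of KRT8 and KRT18.

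Basal and neuroendocrine markers were also divided between on and low or at the floor. Of 18 basal genes, 11 were on, but TP63, the basal master regulator, was at 0.74, 0.77 and 0.69 TPM and the basal keratin genes KRT5 and KRT14 did not exceed 0.04 and 0.23 TPM in any library. KRT15, also a basal keratin gene, was at 83.4, 80.9 and 66.9 TPM, and the hyaluronan receptor gene CD44 at 159, 126 and 122 TPM. Of 17 neuroendocrine genes, 5 were on (29.4%), against 61.7% of all protein-coding genes. ENO2, a neuronal enolase, reached 165, 146 and 138 TPM and FOXA2, a factor of neuroendocrine prostate tumors, 27.3, 21.7 and 20.5 TPM, whereas the granule protein gene CHGA did not exceed 0.12 TPM and UCHL1 had at most 2 counts. REST, the repressor of neuronal genes, was on at 21.4, 16.8 and 17.6 TPM.

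Several mesenchymal genes were on together with epithelial keratins. Of 14 mesenchymal genes 9 were on (64.3%), a share near the 61.7% of all protein-coding genes. Among them were VIM, the intermediate filament of mesenchyme (601, 528 and 457.8 TPM), and FN1, fibronectin (256, 198 and 254 TPM). CDH2, N-cadherin (26.4, 22.9 and 18.8 TPM), and ZEB1, a repressor of E-cadherin (12.1, 11.1 and 10.8 TPM), were on too. Of 12 genes of epithelial transcription and splicing factors 8 were on (66.7%), also near the share of all protein-coding genes. These regulators of the epithelial state were unequal. ELF3 was at 22.6, 10.96 and 18.3 TPM, while GRHL2, OVOL1 and the splicing factor gene ESRP1 did not exceed 0.07 TPM. Of 54 keratin genes, 16 were on (29.6%) and 25 at the floor. The hair keratin gene KRT81, near-identical in parts to its neighbours in the keratin cluster, reached 335, 246 and 248 TPM. Of 39 HOX genes 11 were on, against 19 at a limit of 0.5 TPM and 20 with TPM rescaled to protein-coding genes, with HOXA13 at 23.6, 20.1 and 18.9 TPM and HOXC6 at 2.97, 2.30 and 2.72 TPM.

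Markers of other cell types were mostly low or at the floor. Of 8 endothelial markers 2 were on (1 at a limit of 2 TPM and 4 with TPM rescaled to protein-coding genes), KDR (6.40, 5.45 and 5.48 TPM) and PECAM1 (1.71, 1.43 and 1.72 TPM), while CDH5, a cadherin of endothelial junctions, did not exceed 0.11 TPM. Of 8 blood and immune markers 1 was on, the lysosomal protein gene CD68 at 42.0, 35.6 and 41.9 TPM, with PTPRC at no more than 0.20 TPM and CD3E at no more than 2 counts. Of 10 fibroblast and muscle markers 0 were on, and DCN and DES had at most 3 counts. In bulk RNA, few cells with much of a transcript and many cells with little of it cannot be told apart.

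**Figure D3:**
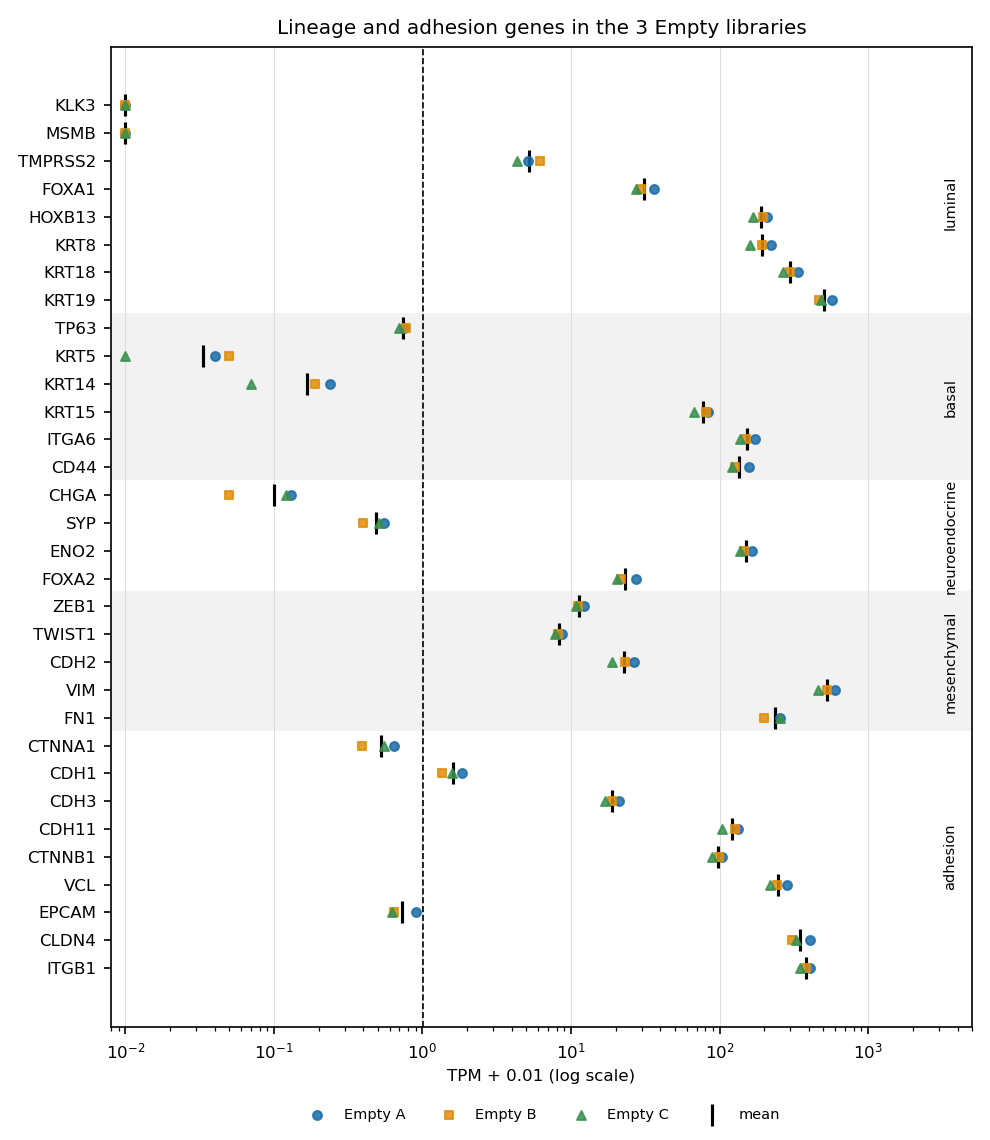
TPM plus 0.01 (horizontal log axis) of lineage and adhesion genes, with a point for each of Empty A, B and C, a bar at the mean and a dashed line at 1 TPM, the limit for on. In the luminal group HOXB13 (167 to 207 TPM) and KRT18 (265 to 339 TPM) stand far over KLK3, which was at 0 in all 3 libraries.

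Among adhesion genes, the epithelial E-cadherin lay just above the limit for on. CDH1, which encodes it, was at 1.83, 1.35 and 1.57 TPM, whereas its neighbour CDH3 (P-cadherin), which ends 9824 bp before CDH1 on chromosome 16, was at 21.1, 18.7 and 16.9 TPM. HAS3, a hyaluronan synthase 270116 bp after CDH1, reached 423, 312 and 313 TPM. CDH11, a cadherin of osteoblasts and mesenchyme, was the highest cadherin named here at 133, 126 and 104 TPM, and did not overlap CDH3 or CDH1. Within the catenins, which tie cadherins to actin, CTNNB1 was at 104, 99.8 and 89.5 TPM and JUP at 21.8, 18.3 and 16.9 TPM, but CTNNA1, alpha-catenin, was at 0.63, 0.38 and 0.54 TPM.

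Of 43 genes of tight junctions, desmosomes and gap junctions, 25 were on (58.1%), a share near the 61.7% of all protein-coding genes. The claudin gene CLDN4 was at 405, 305 and 325 TPM, while CLDN1, at 1.84, 0.90 and 0.70 TPM, was over 1 TPM in Empty A only. TJP1 (32.3, 25.4 and 25.4 TPM), DSP (14.3, 11.4 and 10.9 TPM) and DSG2 (16.03, 10.5 and 11.6 TPM), a scaffold of tight junctions and parts of desmosomes, were on, and EPCAM, an epithelial adhesion molecule, stayed below 1 TPM (0.90, 0.63 and 0.61). Of 26 integrin genes 15 were on (57.7%, near the share of all protein-coding genes) and 0 at the floor. Those of the laminin and collagen receptors led: ITGB1 at 408, 382 and 347 TPM, ITGA3 at 313, 260 and 236 TPM, ITGA6 at 172, 150 and 137 TPM, ITGA2 at 41.2, 33.7 and 37.7 TPM and ITGB4, the hemidesmosome subunit, at 31.0, 23.9 and 25.5 TPM. Vinculin (VCL), which joins integrins to actin, was at 286, 243 and 218 TPM.

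Most genes beside CTNNA1 were on while CTNNA1 was low. In GRCh37 it lies on chromosome 5 from 137946656 to 138270723, and it held 45, 38 and 55.08 counts in A, B and C. HSPA9, 35292 bp before it, averaged 131 TPM, ETF1 46.2 TPM and MATR3, after it, 62.1 TPM. SIL1, 11690 bp after CTNNA1, averaged 4.84 TPM, and LRRTM2, which lies inside CTNNA1 on the opposite strand, had 0 counts. The inducible EGR1, 141664 bp before CTNNA1, was low at a mean of 0.46 TPM.

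Of 51 listed tumor suppressors and oncogenes, 44 were on. RB1, the retinoblastoma gene, stood at 8.70, 7.12 and 5.93 TPM. The cyclin D1 gene CCND1 was at 229, 189 and 163 TPM and MYC at 84.0, 61.7 and 62.3 TPM. NRAS, a small GTPase gene, was low at 0.83, 0.38 and 0.31 TPM. The prostate tumor genes ERG and SPINK1 differed, ERG with at most 1 count and SPINK1 at 7.16, 5.58 and 6.97 TPM.

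Of 174 listed receptor genes 106 (60.9%) were on, a share near the 61.7% of all protein-coding genes. Of 58 receptor tyrosine kinase genes 27 were on, led by EPHA2, an ephrin receptor (174, 143 and 129 TPM), MET, the receptor of hepatocyte growth factor (156, 131 and 130 TPM), and AXL, the receptor of GAS6 (79.8, 62.2 and 51.6 TPM). EGFR (17.7, 12.9 and 12.4 TPM) and ERBB2 (23.01, 22.2 and 19.4 TPM) were lower, IGF1R was at 6.58, 4.48 and 4.36 TPM, and KIT, the stem cell factor receptor, had 0 counts. Of 48 nuclear receptor genes 27 were on. The fatty acid sensor PPARG led those named with 94.2, 85.9 and 79.7 TPM, above the glucocorticoid receptor NR3C1 with 14.6, 12.1 and 11.9 TPM. The estrogen receptor beta gene ESR2 was on at 5.06, 3.78 and 3.14 TPM, while ESR1 and PGR, the estrogen receptor alpha and progesterone receptor genes, did not exceed 0.18 and 0.03 TPM.

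Of 36 cytokine receptor genes, 29 were on. The death receptor TNFRSF21 (263, 247 and 215 TPM) and the TWEAK receptor TNFRSF12A (195, 174 and 165 TPM) were far higher than IL6R (10.5, 7.44 and 8.22 TPM) and the chemokine receptor CXCR4 (9.62, 7.86 and 7.94 TPM). Among 32 receptors of the TGF-beta, BMP, Wnt and Notch pathways 23 were on, with the Wnt receptor gene FZD8 at 142, 139 and 134 TPM, TGFBR2 at 19.8, 14.3 and 14.5 TPM and NOTCH2 at 19.7, 16.8 and 15.4 TPM.

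The secreted signals included several bone-related factors. Of 46 listed genes 29 were on (63.0%), a share near the 61.7% of all protein-coding genes. The Wnt antagonist DKK1 (311, 263 and 265 TPM), GDF15, a stress-induced member of the TGF-beta family (278, 247 and 240 TPM), and PTHLH, the parathyroid hormone-related protein (98.2, 77.1 and 96.6 TPM), were high in all 3 libraries. CCL5, a chemokine, was at 165, 64.5 and 77.4 TPM, and CXCL8 (interleukin 8) at 35.8, 17.2 and 22.0 TPM. Both were highest in Empty A. IL6 was near the limit, at 1.22, 0.41 and 0.50 TPM.

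Genes of plasminogen activators and of collagen VI were among the abundant matrix genes. Of 44 collagen genes, 19 were on. COL6A1 (316, 291 and 251.5 TPM) and COL6A2 (265, 259 and 212 TPM) encode chains of the microfibrillar collagen VI, and COL5A2 (115, 97.7 and 80.5 TPM) a chain of collagen V. Of collagen I, COL1A1 was on at 9.35, 7.01 and 6.87 TPM but its partner COL1A2 did not exceed 0.05 TPM. COL4A1 and COL4A2, which lie side by side and encode the basement membrane collagen IV, were at 7.39, 6.49 and 6.79 TPM and at 20.8, 16.7 and 16.7 TPM. COL3A1 was the unsteady one, at 6.99, 13.6 and 4.81 TPM.

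Of 16 laminin and basement membrane genes, 13 were on, including the perlecan gene HSPG2 (266, 256 and 213 TPM), LAMA3 (96.5, 83.1 and 80 TPM) and LAMB3 (49.2, 49.9 and 47.5 TPM), which encode chains of laminin 332. SPARC, a collagen-binding glycoprotein, was at 104, 95.7 and 86.2 TPM. Of 43 proteases and inhibitors 24 were on (55.8%, against 61.7% of all protein-coding genes). PLAT, the tissue plasminogen activator, led with 765, 771 and 602 TPM, next to PLAU, the urokinase (216, 158 and 166 TPM). Metalloprotease genes diverged, since the collagenase genes MMP1 (118, 90.03 and 83.4 TPM) and MMP13 (49.8, 32.1 and 43.5 TPM) were on, MMP9 stayed at 0.46, 0.30 and 0.29 TPM and MMP2 had 0 counts. The inhibitor TIMP1 was at 473, 433 and 396 TPM and TIMP3 at 6.38, 4.28 and 3.16 TPM.

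Most metabolic genes were on, 168 of 207 listed (81.2%, against 61.7% of all protein-coding genes). They included 39 of 41 of the tricarboxylic acid cycle and glutamine list and 35 of 36 of lipid and sterol synthesis. In glycolysis 27 of 43 genes and isozymes were on (62.8%), a share near that of all protein-coding genes. LDHA, which makes lactate, was at 1605, 1396 and 1348 TPM against 243, 220 and 183 TPM for LDHB, PGK1 was at 1320, 1269 and 1208 TPM and PKM at 1251, 1159 and 1001 TPM. HK1 (162, 160 and 129 TPM) was above HK2 (67.8, 53.0 and 54.6 TPM), the inducible hexokinase, and the glucose transporter SLC2A1 was at 102, 93.0 and 87.6 TPM. Of 22 hypoxia response genes 20 were on, with NDRG1 at 453, 402 and 441 TPM, ANGPTL4 at 108, 118 and 81.6 TPM, VEGFA at 48.0, 43.1 and 39.0 TPM and CA9, a carbonic anhydrase, at 12.7, 8.46 and 10.98 TPM. No normoxic sample was analysed here, so these levels carry no comparison with oxygen.

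In lipid synthesis, the desaturase genes SCD (252, 221 and 210 TPM) and FADS2 (228, 210 and 180 TPM) exceeded FASN, the fatty acid synthase (90.8, 65.7 and 56.1 TPM). For serine and nucleotide metabolism 25 of 26 genes were on, with SHMT2 at 81.4, 68.0 and 65.1 TPM and PHGDH at 45.6, 32.9 and 31.1 TPM. Of 39 steroid and xenobiotic genes 22 were on (56.4%, against 61.7% of all protein-coding genes). Among them were the metallothionein gene MT2A (606, 460 and 559 TPM), the retinal dehydrogenase gene ALDH1A3 (471, 401 and 348 TPM) and the glutathione transferase gene GSTP1 (245, 219 and 187 TPM). GSTM1 and MT1G had 0 counts. Metallothionein genes are close paralogs, and their split is uncertain.

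All 23 proliferation genes and all 10 NF-Y subunits and partners were on. MKI67, the Ki-67 antigen, was at 34.7, 25.1 and 22.1 TPM, PCNA, the replication clamp, at 110, 92.8 and 80.3 TPM, and UBE2C, a mitotic ubiquitin enzyme, at 137, 124 and 106 TPM. NFYA was at 19.9, 16.5 and 14.96 TPM, NFYB at 6.91, 5.29 and 5.33 TPM and NFYC at 15.6, 13.96 and 12.2 TPM. NF-Y binds the CCAAT box, so the promoters were searched for the letters CCAAT on both strands (CCAAT or ATTGG, which share no overlap with TATAAA). They were found in 15 of 16 promoters of proliferation genes with a RefSeq entry, 35.7% of all 27305 promoters, 36.98% of those of protein-coding genes that were on and 37.4% of those at the floor. The promoter of CCNB1, the cyclin B1 gene (40.2, 35.1 and 29.5 TPM), is shown as it holds 2 of them, at positions -87 and -55 from the start, in capitals. It lies at chr5:68462727-68463026 of GRCh37 on the plus strand.
CCNB1: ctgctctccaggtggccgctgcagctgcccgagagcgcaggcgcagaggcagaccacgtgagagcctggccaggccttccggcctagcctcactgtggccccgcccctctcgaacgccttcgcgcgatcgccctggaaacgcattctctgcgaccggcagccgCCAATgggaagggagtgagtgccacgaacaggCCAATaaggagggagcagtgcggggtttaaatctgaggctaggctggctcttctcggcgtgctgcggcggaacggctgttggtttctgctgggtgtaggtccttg

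The structural RNAs of the cell dominated the TPM. RN7SL2, the RNA of the signal recognition particle, was the most abundant gene of all, at 122610, 156392 and 162923 TPM, with its near-identical copy RN7SL1 at 107838, 121554 and 132809 TPM and RN7SK, the brake of the elongation factor P-TEFb, at 92998, 105679 and 108846 TPM. All 3 were lowest in Empty A. How reads were shared between the 7SL copies is uncertain.

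RMRP, the RNA of RNase MRP, stood at 18149, 24617 and 23751 TPM, and TERC, the telomerase RNA, at 699, 609 and 542 TPM. Of 47 named long non-coding RNAs 34 were on. NEAT1, the scaffold of paraspeckles, was at 489, 245 and 316 TPM and MALAT1, a nuclear speckle RNA, at 291, 81.3 and 108 TPM, and both were highest in Empty A. Of 14 long non-coding RNAs known from prostate cancer 6 were on, and 3 at a limit of 2 TPM. SCHLAP1 was at 14.9, 6.81 and 10.3 TPM, PCA3 did not exceed 0.37 TPM and PCGEM1 had 0 counts. HOTAIR, encoded in the HOXC cluster, was at 0.23, 0.18 and 0.14 TPM. Of 1859 microRNA hairpins 4 were on, in libraries that were not made for small RNA.

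The libraries were alike for most genes. Among 7530 genes that were on at a mean of 10 TPM or more, the highest library exceeded the lowest by a median ratio of 1.14 on TMM-scaled CPM, and 109 genes (1.45%) exceeded a ratio of 2. These were 64 of 95 small nucleolar RNAs, 19 of 24 small nuclear RNAs, 10 of 201 long non-coding RNAs, 8 of 7086 protein-coding genes, 3 of 3 ribosomal RNAs, 2 of 3 microRNA hairpins, 2 of 5 other structural RNAs and 1 of 95 pseudogenes. Of the 109, 78 were lowest in Empty A. The widest were RNY3, a Y RNA, with a ratio of 5.12 (176, 423 and 961 counts), and the spliceosomal RNU4-2 with 4.97, whose near-identical copy RNU4-1 had 4.15. Of genes classed as protein-coding by RefSeq, CDR1 was at 76.3, 15.7 and 20.5 TPM. MTRNR2L8, a copy of mitochondrial ribosomal RNA sequence, was at 453, 94.4 and 141 TPM. Both were highest in A. GENCODE gives CDR1 as a long non-coding RNA, and it overlaps the long non-coding RNA LINC00632 on the opposite strand.

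The same transcript led in all 3 libraries in 6567 of 7856 genes that were on and had several transcripts (83.6%). It took at least 80% of the gene in each library in 2634 (33.5%), and the median share of the leading transcript was 72.6%. CD44 was made mostly as its standard form, which lacks the variant exons and took 89.6, 91.2 and 89.3% of the gene, while the form with all variant exons took no more than 2.17%. The CDKN2A locus, at 51.2, 38.6 and 34.1 TPM, gave the transcript of the p14ARF protein in 94.4, 94.4 and 95.2% and that of p16 in 0.33, 0.75 and 0.22%.

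In metabolism, the embryonic PKM2 form led PKM with 64.3, 67.0 and 66.2% and the PKM1 form took at most 0.12%. NEAT1 was mostly its long form, with 92.6, 81.2 and 87.7%. In NFYA the transcript without exon 3 took 70.3, 37.9 and 45.3%, so the leading form in A was not the leading form in B and C. For VDR and IL4R too the leading transcript changed between libraries. These shares are RSEM estimates from short reads.

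Finally, the genes described were followed in MTSs of the NF-YAl and NF-YAs lines, to show where Empty differed from lines under the same selection. Protein-coding genes took 39.4 to 76.4% of the TPM in NF-YAl, the most in library D, and 45.3 to 53.1% in NF-YAs, so TPM shift between lines, and fold changes rest on TMM-scaled counts. Both comparisons use the same Empty libraries and are not independent. NF-YAl had 13763 genes on, of which 13038 were on in Empty (94.7% of those in NF-YAl and 97.5% of those in Empty), and NF-YAs had 13778, of which 13018 were on in Empty (94.5% and 97.4%). A gene was called when edgeR's quasi-likelihood test gave an adjusted p under 0.01 and the |log2FC| exceeded 1.

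Of 816 tested members of all lists, 76 were called higher and 66 lower in NF-YAl than in Empty, where 4.76 and 3.50% of all 17108 tested genes were called. In NF-YAs 97 were higher and 70 lower, against 5.44 and 3.90% of all genes. The lists were chosen with earlier results of these data known, so an excess of calls among their members cannot be read as a result. This holds for the single lists below too, and the same shares of all tested genes are the reference for their counts. The median log2FC of all genes was 0.011 in NF-YAl and -0.0026 in NF-YAs.

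MSMP was higher in both lines. It stood at 14434, 11938 and 20628 TPM in NF-YAl A, B and D and at 13229, 13919 and 12384 TPM in NF-YAs A, B and C. No library of either line overlapped the 4262 to 5023 TPM of Empty. The log2FC was 1.37 (SE 0.136, adjusted p = 1.95e-05) in NF-YAl and 1.27 (SE 0.136, adjusted p = 2.63e-05) in NF-YAs.

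S100A6 was lower than in Empty, at 1081, 840 and 2008 TPM in NF-YAl and 1190, 1067 and 1022 TPM in NF-YAs, each below the lowest Empty library at 2869 TPM. Its log2FC was -1.63 (SE 0.124, adjusted p = 3.19e-06) and -1.69 (SE 0.125, adjusted p = 2.20e-06). TIMP3, a metalloprotease inhibitor bound to the matrix, was on in Empty with 605, 559 and 425 counts and held 3, 2 and 2 counts in NF-YAl. This was at least 159-fold lower, set against the floor of 3 counts per library. In NF-YAs TIMP3 held 26, 13 and 38 counts, a log2FC of -4.07 (SE 0.283, adjusted p = 1.56e-06).

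**Figure D4:**
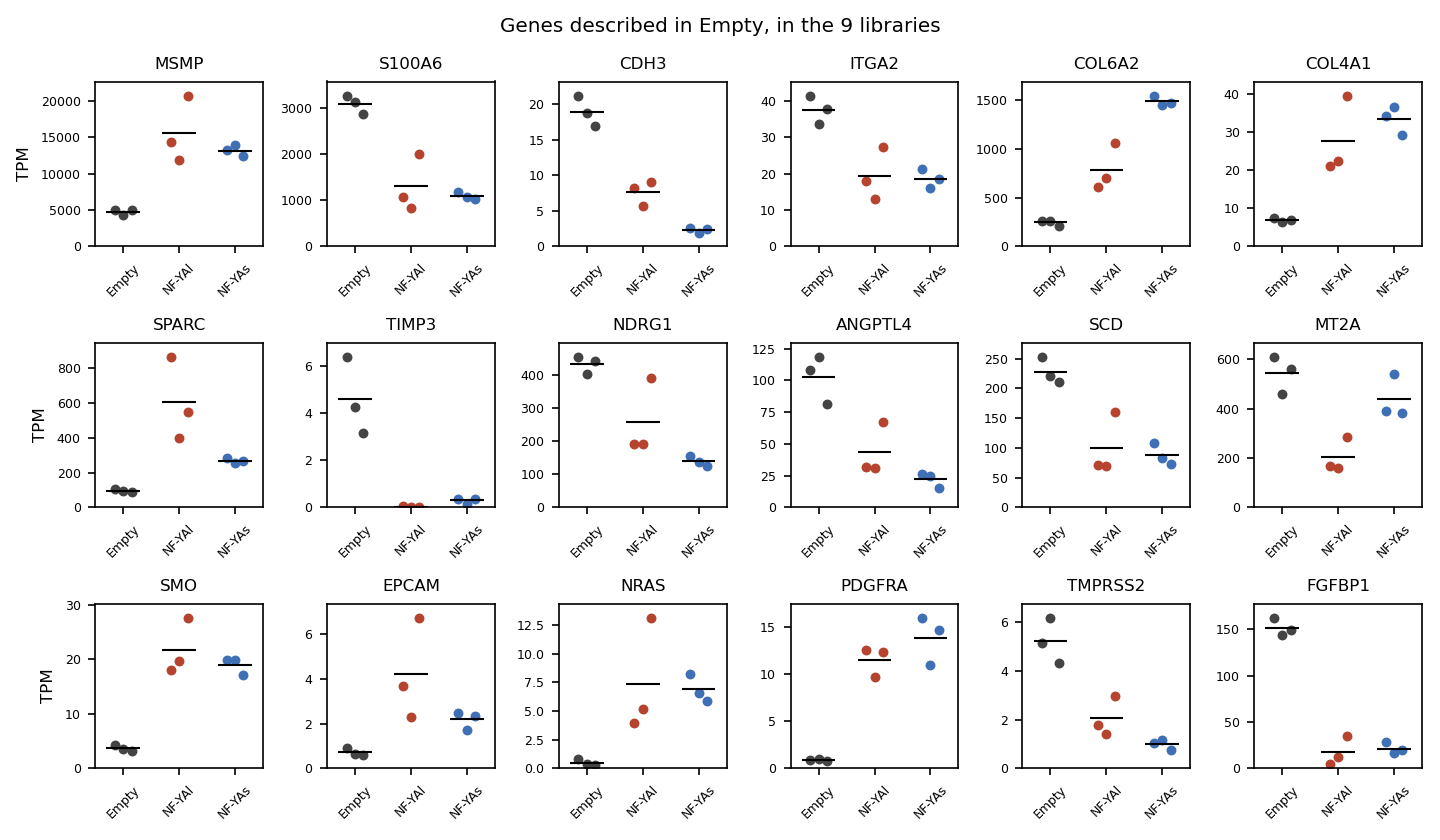
TPM (vertical linear axes, each from 0) of genes described in Empty, with a point for each of the 9 libraries, a colour for each line and a bar at the mean of the 3. MSMP and PDGFRA lie higher and S100A6 lies lower in every library of both lines than in Empty, and the third NF-YAl point (D) often lies above A and B, in the library with 76.4% of its TPM in protein-coding genes.

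Of 106 tested lineage genes, 9 were higher and 20 lower in NF-YAl, and 13 were higher and 15 lower in NF-YAs. Of 78 tested adhesion genes, 15 were higher and 8 lower in NF-YAl, and 12 were higher and 9 lower in NF-YAs. Of 20 tested keratin genes 0 were higher and 9 lower in NF-YAl, with 0 higher and 6 lower in NF-YAs, and the list's median log2FC was -0.96 and -0.70. DESeq2 called 0 keratin genes higher in either line, and 4 and 1 were higher at an unadjusted p under 0.05 in edgeR. KRT8 had a log2FC of -1.33 (SE 0.0979, adjusted p = 2.50e-06) in NF-YAl, and its log2FC of -0.78 in NF-YAs did not pass the size limit. KRT38, a hair keratin gene, had a log2FC of -2.20 and -3.98. CDH3, at 16.9 to 21.1 TPM in Empty, was at 8.16, 5.65 and 9.01 TPM in NF-YAl and 2.54, 1.83 and 2.41 TPM in NF-YAs (log2FC -1.63 and -3.24, adjusted p = 1.06e-05 and 2.36e-07). CDH1 had a log2FC of 0.17 (adjusted p = 0.585) in NF-YAl and -1.33 (adjusted p = 0.000931) in NF-YAs. EPCAM, low in Empty, was higher in both, with a log2FC of 2.16 and 1.46.

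Of 147 tested receptor genes, 22 were higher and 5 lower in NF-YAl, and 23 were higher and 7 lower in NF-YAs. Of 48 receptor tyrosine kinase genes 11 were higher and 0 lower in NF-YAl, and 12 were higher and 1 lower in NF-YAs, with median log2FC of 0.37 and 0.29. For the 0 that were lower in NF-YAl, DESeq2 also gave 0, and 8 were lower at an unadjusted p under 0.05. PDGFRA, the receptor of platelet-derived growth factor, was at 0.92, 1.04 and 0.78 TPM in Empty against 12.5, 9.72 and 12.3 TPM in NF-YAl and 15.9, 10.96 and 14.7 TPM in NF-YAs. The groups lay apart, with a log2FC of 3.60 (adjusted p = 9.79e-07) and 3.92 (adjusted p = 5.08e-07). The endothelial marker KDR, also a receptor, was higher in both lines (log2FC 4.01 and 2.94), as was SMO, the transducer of Hedgehog signals (2.26 and 2.20). Of the 8 endothelial markers, 4 could be tested, and 1 was higher (KDR) and 1 lower in each line. VWF, a clotting glycoprotein, had a log2FC of -3.23 (adjusted p = 1.92e-06) in NF-YAl and PECAM1 one of -1.73 (adjusted p = 4.80e-05) in NF-YAs. The part of cell makeup in these changes was not tested.

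In the matrix, 9 of 33 tested collagen genes were higher and 1 lower in NF-YAl, and 19 were higher and 0 lower in NF-YAs, with median log2FC of 0.81 and 1.24. DESeq2 too called 0 lower in NF-YAs, and 1 was lower at an unadjusted p under 0.05. COL6A2 had a log2FC of 1.34 (SE 0.142, adjusted p = 2.96e-05) and 2.43 (SE 0.147, adjusted p = 5.34e-07). COL6A1, at 0.98 in NF-YAl, missed the size limit there and was called in NF-YAs at 2.002. COL4A1 was higher in both (1.66 and 2.12). SPARC was higher too (2.39 and 1.32), and its call in NF-YAs was lost without Empty A (log2FC 1.26, adjusted p = 0.0101). MMP2, with 0 counts in Empty, held 18, 23 and 23 counts in NF-YAs, at least 8.74-fold above the floor, and at most 1 count in NF-YAl.

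Of 182 tested metabolic genes, 1 was higher and 16 lower in NF-YAl and 1 was higher and 15 lower in NF-YAs. Of the 22 hypoxia response genes, 5 were lower and 1 higher in NF-YAl and 6 were lower in NF-YAs, and the list's median log2FC was -0.46 and -0.69. ANGPTL4 fell by 1.63 and by 2.42 and NDRG1 fell by 1.13 and by 1.82 on the log2 scale. SCD had a log2FC of -1.58 and -1.56, with no overlap between Empty at 210 to 252 TPM and either line at 160 TPM or less. Of the 23 proliferation genes 0 were called in either comparison by edgeR or DESeq2, with median log2FC of -0.36 and 0.21. At an unadjusted p under 0.05, 10 were lower in NF-YAl and 7 were higher in NF-YAs. MKI67 had a log2FC of -0.36 (adjusted p = 0.116) and 0.49 (adjusted p = 0.0359).

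Few genes crossed from the floor to on. From Empty to NF-YAl, 23 genes at the floor were on, of which 7 were called, and 19 genes went the other way, of which 9 were called. From Empty to NF-YAs these numbers were 29 with 25 called and 29 with 10 called. Crossing and call rest on the same libraries, so the numbers called give no separate support for the crossings. Among the 23 genes, the SNAR-A copies held the same TPM (14.5, 42.7 and 9.78 in NF-YAl A, B and D) yet were counted separately. Their lower bound of the fold was 0.71. Other short RNAs also crossed, in either direction, with a bound under 1, which shows no difference from the floor. Of the 19 and 29 genes that went from on to the floor, 6 and 9 held no more than 3 counts in any Empty library, and of the 23 and 29 that went the other way, 3 and 1 held no more than 3 in any library of the line, so that their crossing shows no difference in counts. MYCN, a MYC family gene, held 0, 0 and 3 counts in Empty, and rose at least 18.6-fold over the floor in the NF-YAl line and at least 23.6-fold in the NF-YAs line. It crossed to on in NF-YAs only, since in NF-YAl A, B and D it was at 2.18, 0.63 and 1.25 TPM. TWIST2, a mesenchymal regulator, held 0 counts in Empty and rose at least 12.6-fold over the floor in the NF-YAs line.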

How the data were processed

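The authors aligned stranded total RNA reads to human RefSeq transcripts (GRCh37) using Bowtie2 inside RSEM 1.3.1. The deposited expected counts are RSEM estimates without normalization. The deposited TPM correct these for effective length, and the deposited IsoPct give the percent of a gene's TPM held by a transcript. Whether counting used strand is not given in the sources used here, so overlapping and antisense genes are uncertain. Labels letter the replicates A to D, and the methods call the experiments independent.

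Genes were on at 1 TPM or more in all 3 Empty libraries and at the floor with at most 3 counts in each, and a main transcript took 80% or more in each. Rounded counts of all 9 libraries were fitted with edgeR 4.0.16 in R 4.3.3 (filterByExpr, TMM, quasi-likelihood F test, Benjamini-Hochberg adjustment over 17108 genes), with the thresholds of the study, which used DESeq2. Folds against a group at the floor used 3 counts per library, are lower bounds and cover counting error only. In simulated counts for NF-YAl against Empty with 17108 genes, 200 of 200 changed genes were recovered. Those genes had many counts and changes well over the size limit, so genes with few counts or changes near the limit were not covered. Alternatives were DESeq2 1.42.0, other scaling and filters, a replicate block, fits of 2 groups and leaving out each library. The members and the 34 gene lists (1016 measured members) were chosen with earlier results of these data known. In each list the named genes were those marked as key, the 3 highest in Empty and up to 3 called in both comparisons. Over all genes they were the 15 highest protein-coding and 10 highest non-coding genes, the 5 widest between libraries and the 5 largest falls per line. The text names a part of these, and others were chosen after their values were seen. Positions came from GENCODE on GRCh37, which placed 183 of 190 genes sought, and promoters from RefSeq. Results for some genes are left out of this text.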

Additional observations from a re-analysis of the deposited data

How the results depend on the processing

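The number of genes on in Empty was 13372, and it was 14691 at 0.5 TPM, 11966 at 2 TPM and 13422 to 13673 when each library was left out. Genes at the floor numbered 7984, 9994 with up to 10 counts, 5187 with 0 counts only, and 8172 to 8362 without each library. Main transcripts numbered 2634, 5684 at 50%, 1517 at 90%, and 2827 to 2865 without each library. Rescaling to protein-coding genes alone raised the HOX genes on from 11 to 20 and the endothelial markers on from 2 to 4, and a limit of 0.5 TPM gave 19 HOX genes. At 2 TPM, 1 endothelial marker and 3 of the 6 prostate cancer long non-coding RNAs were on. For calls against the lines, a minimum of 10 counts in every library gave 618 genes higher in NF-YAs in place of 931. Leaving out each replicate gave 637 to 931 higher and 480 to 664 lower genes in NF-YAl, and 754 to 851 higher and 504 to 606 lower genes in NF-YAs. No count and no call of a named gene changed direction under these alternatives. With DESeq2, 874 genes were higher and 621 lower in NF-YAl, whereas 986 were higher and 679 lower in NF-YAs.

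With the replicate block, 905 genes were higher and 642 lower in NF-YAl, and 995 higher and 735 lower in NF-YAs. Deviations of libraries with the same letter correlated at 0.077, -0.013 and 0.098 between Empty and NF-YAs, and at 0.12 and 0.25 between Empty and NF-YAl. Pairs with different letters ran from -0.22 to 0.042. Whether libraries of the same letter came from the same experiment was not tested. Of 87 calls of named genes in NF-YAl, 66 held under every alternative, as did 79 of 93 in NF-YAs. In NF-YAl, 11, 8 and 13 calls were lost without Empty A, B and C, and 10, 7 and 5 without NF-YAl A, B and D. In NF-YAs these were 6, 6 and 10 without Empty A, B and C, and 8, 9 and 7 without NF-YAs A, B and C. Genes with 3 counts or fewer are limited by depth.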

Other observations

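Of the genes on in Empty at a mean of 10 TPM or more, the largest falls in NF-YAl were those of CCL2, a chemokine (19.2, 4.2 and 14.6 TPM in Empty, log2FC -5.92, adjusted p = 6.39e-05), MAGEA6, a cancer-testis antigen with close paralogs (39.5, 32.0 and 29.1 TPM, -3.93), FGFBP1, a carrier of fibroblast growth factors (162, 145 and 149 TPM, -3.62), MX2, an interferon-induced gene (19.9, 16.7 and 19.7 TPM, -3.11), and LINC01444 (22.9, 18.1 and 21.1 TPM, -2.98). In NF-YAs they were those of TFF2, a trefoil peptide (16.5, 18.8 and 9.23 TPM, -5.57, adjusted p = 5.40e-05), ELF3 (-4.63), KRT38 (-3.98), KRT7, a keratin of simple epithelium (22.9, 15.2 and 12.8 TPM, -3.85), and WFDC10B (12.4, 8.40 and 9.54 TPM, -3.55). CCL2 was lowest in Empty B.

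Of 34 keratin promoters with a RefSeq entry, 20 held TATAAA on either strand, a share of 58.8%, against 12.0% of all promoters. For CCAAT the shares were 10 of 32 collagen promoters and 15 of 29 of lipid and sterol synthesis, against 35.7% of all.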
